A study of Mus musculus with 10 samples.

Results

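The cytosolic ribosomal protein genes encode the protein parts of the small (40S) and large (60S) subunits of the ribosome outside the mitochondria. They were chosen by symbol alone. A probe set belonged if its annotation gave exactly 1 gene symbol, made of Rpl or Rps, digits and an optional suffix of a, x or l with an optional digit, or was Rplp0, Rplp1, Rplp2 or Rpsa. Pseudogene symbols ending in -ps and the Rps6k kinases were left out. This took 108 probe sets, and with the brightest probe set kept per gene it left 67 genes of the 22180 genes tested, 42 of the large and 25 of the small subunit. The study took male mice of the outbred NMRI stock at 3 weeks of age and, after a week to settle, gave 30 of them a natural-ingredient diet with less than 5 mg carnitine per kg (control) and 30 the same diet with 1000 mg L-carnitine added per kg (carnitine). Gastrocnemius RNA from 5 mice per diet was hybridised to 1 Affymetrix Mouse Gene 2.0 ST array each. All 10 mice thus shared sex, stock and basal diet. Mice of the study were killed at 9, 15 or 18 months, and the labels do not say which age the array mice had. Mice were housed 5 to a cage, and the labels do not tie arrays to cages, so mice of a group may share one. Values are log2 signals of the deposited RMA normalization, and differences are carnitine minus control.

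Each ribosome holds 1 copy of nearly every one of these proteins, so their genes are expressed in all tissues and tend to be regulated as a group. Their mRNAs begin with a run of pyrimidines, the 5′ terminal oligopyrimidine tract, through which the kinase mTORC1 sets their translation, so that much of their control lies downstream of mRNA level. A few members have paralogues of restricted expression. Rpl3l replaces Rpl3 in ribosomes of heart and skeletal muscle, Rpl10l and Rpl39l are known from male germ cells, and Rps27l is a target of p53. In bulk muscle RNA, fewer cells of a type and less RNA per cell cannot be told apart, and RMA removes any change in total RNA per sample.

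The start-site regions of the genes were searched for 2 short motifs. RefSeq promoter windows on the GRCm38.p6 build, from 250 bases before to 50 after the annotated start, were found for 52 of the 67 genes. The motif CCGGAAG or its reverse complement CTTCCGG, the core bound by ETS factors such as GABPA, was present in 23 of the 52 (44.2%). It was present in 9.93% of the 27025 genes with a window and in 12.9% of the protein-coding ones. A pyrimidine run written as CTTTC or CTTTT, read on the sense strand from 20 bases before to 30 after the start, was present in 22 (42.3%). It was present in 12.8% of all genes and in 11.6% of the protein-coding ones. Both motifs were present in 14 members, and matches of the 2 motifs overlapped in 0 of them. The windows below run from 60 bases before to 30 after the start, 5′ to 3′ on the gene's strand, with matches to either motif in capitals. Rps6, Rps26 and Rpl15 are shown for the pyrimidine run (their ETS core lies outside the part printed), Rpl38 and Rpl26 for both motifs, Rps27l for the ETS core, and the paralogues Rpl7l1 and Rpl3l, on which results below turn, for having neither match in the whole window. Rps27l and Rpl3l have 2 windows each, of which the first listed is shown.
Rps6, chr4:86857338-86857427, minus strand: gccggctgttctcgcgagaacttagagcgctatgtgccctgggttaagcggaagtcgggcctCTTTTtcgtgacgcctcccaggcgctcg
Rps26, chr10:128626477-128626566, minus strand: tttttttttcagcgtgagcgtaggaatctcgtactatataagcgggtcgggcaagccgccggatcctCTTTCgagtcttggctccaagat
Rpl15, chr14:18270957-18271046, minus strand: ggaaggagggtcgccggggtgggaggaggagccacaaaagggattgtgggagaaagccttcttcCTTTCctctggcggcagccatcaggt
Rpl38, chr11:114668520-114668609, plus strand: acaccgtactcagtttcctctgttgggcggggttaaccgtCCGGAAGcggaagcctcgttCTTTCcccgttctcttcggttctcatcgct
Rpl26, chr11:68901506-68901595, plus strand: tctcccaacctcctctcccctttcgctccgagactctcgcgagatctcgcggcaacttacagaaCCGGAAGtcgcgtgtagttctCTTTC
Rps27l, chr9:66946026-66946115, plus strand: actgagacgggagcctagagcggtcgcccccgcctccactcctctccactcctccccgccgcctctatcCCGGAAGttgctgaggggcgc
Rpl7l1, chr17:46782627-46782716, minus strand: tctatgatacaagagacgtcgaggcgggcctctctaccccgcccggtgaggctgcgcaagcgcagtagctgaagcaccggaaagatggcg
Rpl3l, chr17:24727766-24727855, plus strand: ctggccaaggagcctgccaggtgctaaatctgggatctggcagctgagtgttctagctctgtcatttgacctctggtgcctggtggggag
Matches are letters in a window, and whether the annotated starts are those used in muscle was not tested.

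The signal level of the members on the arrays ran from a log2 value of 3.44 for Rpl32l, a like-named copy of Rpl32, to 12.47 for Rpl21, with a median of 8.27 over the 67 genes. The median probe set of the array lay at 5.80. Of the members, 54 lay above that level and 33 were at or above the 90th percentile of all probe sets. The other 13 lay at or below it. They included the paralogues Rpl10l and Rpl22l1, the like-named copy Rpl32l and the transcribed pseudogene Rps4l. The rest were Rpl11, Rpl17, Rpl27a, Rpl30, Rpl37a, Rplp2, Rps14, Rps15 and Rps20, which encode core subunits of every ribosome. Whether these dim probe sets read the main transcript of their gene was not tested. Of the 67 genes, 20 also occur in probe sets that name several genes, which were not used. In RefSeq, 20 protein-coding genes of the same symbol pattern had no probe set of their own here, among them Rps2, Rps27a, Rpl10, Rpl12 and Rpl31, and 13 of the 20 occur in shared probe sets. Ribosomal protein genes have many near-identical processed copies in the genome, so all values below may include signal from copies. For 25 genes with several probe sets, the brightest and dimmest differed by a median of 3.65 log2 units, and the sign of the diet difference was the same in all probe sets of a gene in 12 and not in 13. Rps26 had the widest gap, at 6.74.

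No member differed between the diets past the threshold. In limma, a linear model across all genes, with Benjamini-Hochberg adjustment over all 22180 genes, 0 of the 67 members and 0 of all genes (0%) had an adjusted p below 0.05, and the smallest adjusted p of a member was 0.712. Unadjusted p values below 0.05 were found in 4 members, or 5.97%, against 6.97% of all genes. The 4 were Rpl7l1, Rps26 and Rpl6l on the higher side, where the share over all genes was 3.14%, and Rps4l on the lower side, where it was 3.83%. The groups did not overlap in 2 members, or 2.99%, against 1.11% of all genes. These were Rpl7l1 on the higher side, where 0.505% of all genes did not overlap, and Rps4l on the lower side, where the share was 0.609%. The precision was enough to bound most differences. The median standard error of a member was 0.11 log2 units, and for 61 of the 67 genes the 95% confidence interval lay within 1.5-fold in both directions. The other 6, Rps13, Rpl7, Rpl9, Rps15, Rps24 and Rps3a1, had intervals that reached past 1.5-fold upwards.

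The sign of the differences leaned upwards. Of the members, 48 had a positive and 19 a negative difference (71.6% positive, against 47.7% of all genes), with a median of 0.06 against -0.01 over all genes. The split was 56 positive after median centring of the arrays and 31 after cyclic loess, and the median was 0.11 and -0.01. Median centring adds 0.05 to the difference of every gene and took the median of all genes to 0.04, and cyclic loess took it to 0.002, so relative to all genes the members' excess was the same as deposited and after median centring, and was not seen after cyclic loess. It ran alike in both subunits, with 31 of 42 positive in the 60S and 17 of 25 in the 40S, at medians of 0.05 and 0.07. It went with the signal level. Above the median probe set level 44 of 54 members were positive (81.5%), against 62.8% of all genes above it. At or below it 4 of 13 were positive (30.8%), against 26.7% of all genes. The 54 had a median level of 9.15, while 4689 of all genes lay from 6 to 7. There the median difference was 0.02 for members and -0.01 for all genes. It was 0.08 and 0.07 from 7 to 8, and 0.06 and 0.10 from 8 to 9. It was 0.115 and 0.102 from 9 to 10, and 0.083 and 0.084 from 10 to 11. At like levels the members' medians thus lay near those of all genes. Without control replicate 5, described next, the positive members were 38 of 67 (56.7%, against 51.1% of all genes) and the median difference was 0.03. The difference was then smaller in size by over 1.5 times in 25 members, 22 of them positive with all arrays. Of the bright members 34 of 54 were then positive (63.0%, against 59.2%), and of the dim ones 4 of 13 (30.8%, against 39.9%).

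**Figure D1:**
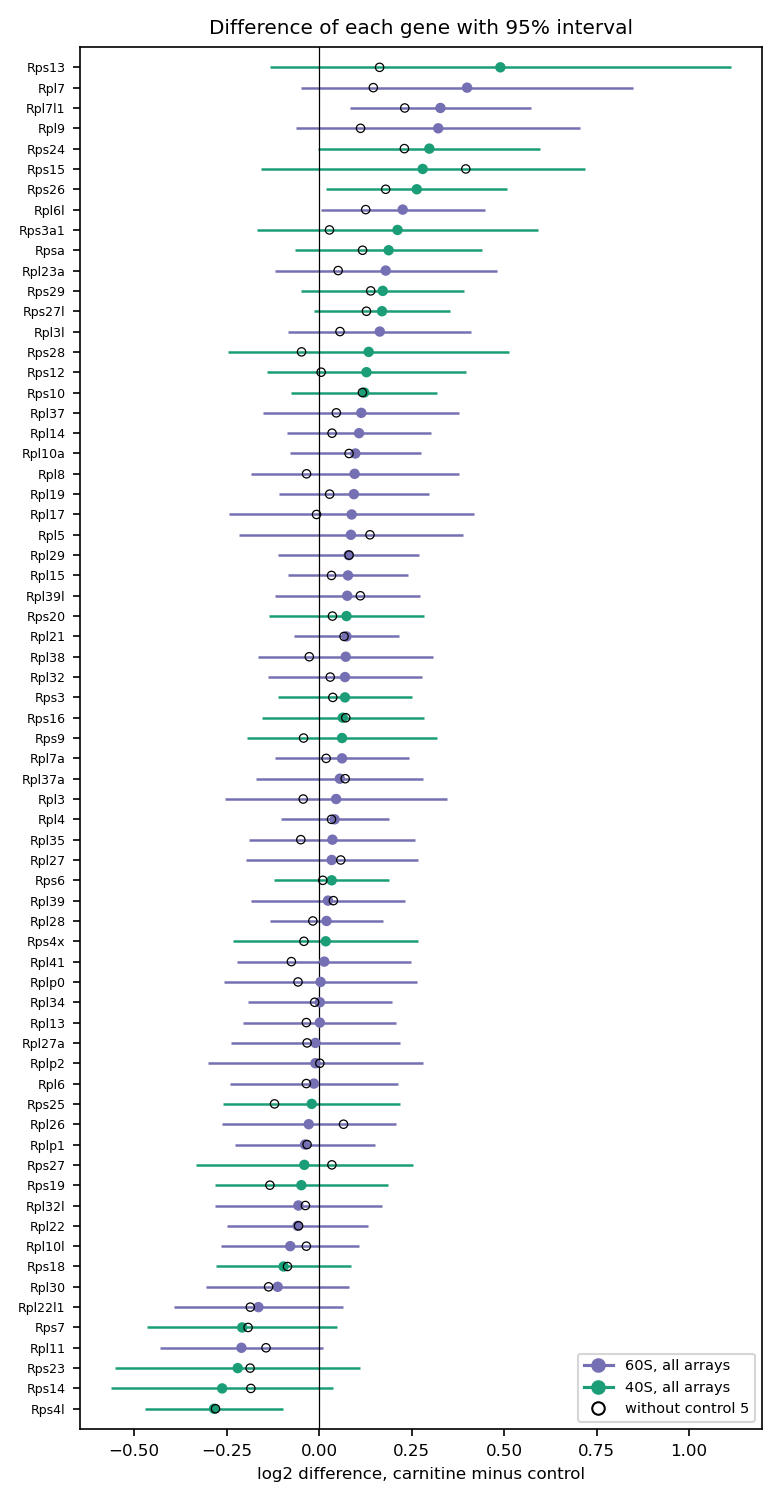
Log2 difference, carnitine minus control, of each of the 67 genes (filled points, with 95% confidence intervals from limma, purple for 60S and green for 40S), and the same difference without control replicate 5 (open points). Most intervals cross 0, and most open points lie nearer to 0 than the filled ones among the genes at the top.

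Control replicate 5 was the array with the narrowest range. Its probe sets had an interquartile width of 2.20 log2 units, and those of the other arrays spanned 2.39 to 2.59. The mean log2 value of the 67 members was 8.19, 8.02, 8.12, 8.16 and 7.90 in control replicates 1 to 5, and 8.13, 8.12, 8.16, 8.20 and 8.07 in the carnitine replicates. The carnitine mice lay within the range of the first 4 controls but for replicate 4, just above it, and control replicate 5 lay below all others. With 5 mice in each group, control averaged 8.08 ± 0.12 (SD) and carnitine 8.14 ± 0.05. The difference was 0.06, and 0.01 without control replicate 5. Of the 54 bright members, 32 (59.3%) had their lowest value of all 10 arrays in control replicate 5, against 36.2% of all genes above the median level. Many of those genes were dimmer than the bright members, and the share at the members' own levels was not counted. The dim members did not share this, with 1 of 13 lowest there and 3 of 13 highest (23.1%, against 43.5% of all genes at or below the median level). The mean of the bright members was 8.59 on that array and 8.77 to 8.98 on the others, while the mean of the dim ones was 5.05, within the 4.88 to 5.05 of the other arrays. Among the marker lists, those of T cells (5.87) and macrophages (6.76) had their highest mean of the 10 arrays on control replicate 5, and that of endothelial cells (8.05) its lowest. The adipocyte list stood there at its highest (6.40), tied with control replicate 2. The part of these markers and of the array's range in the result was not tested.

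**Figure D2:**
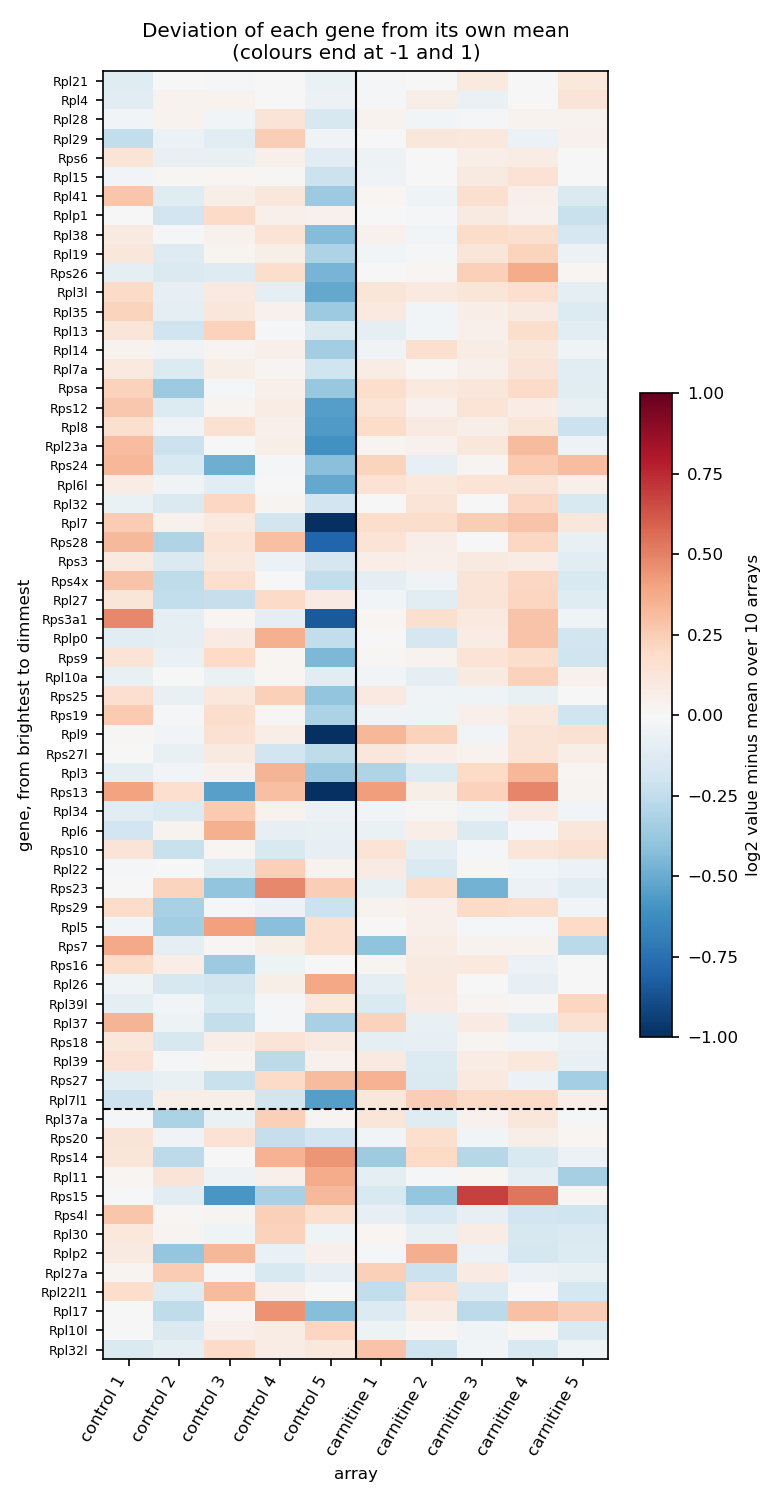
Log2 value of each gene minus its own mean over the 10 arrays, genes from the brightest at the top to the dimmest, with colours ending at -1 and 1, with the dashed line at the median probe set level and the solid line between the diets. The column of control 5 is blue for most genes above the dashed line and not below it.

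**Figure D3:**
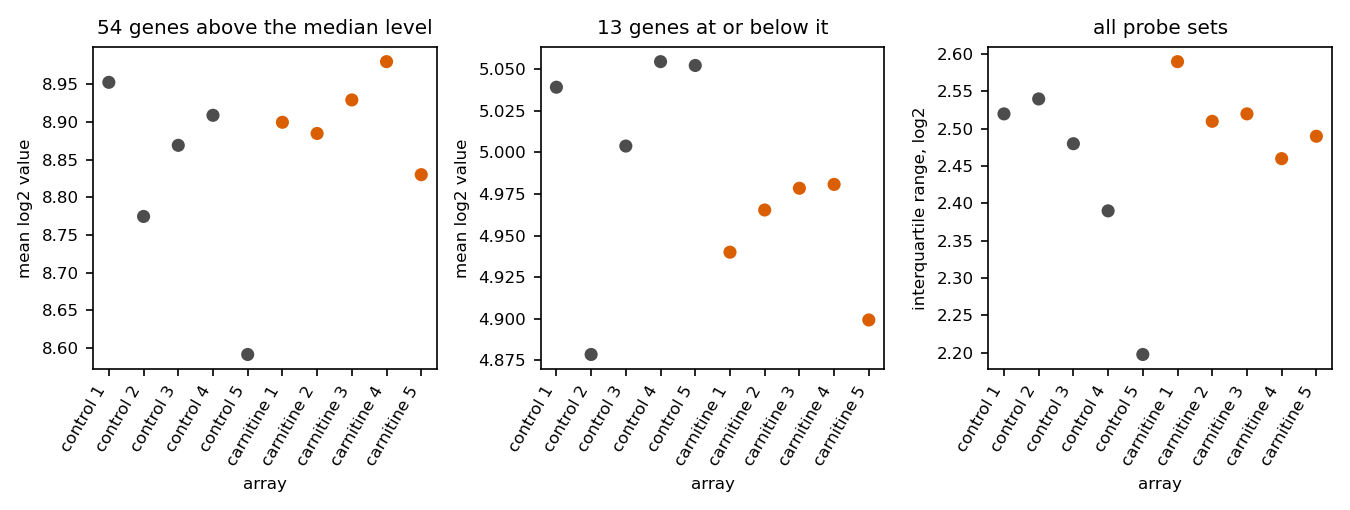
Mean log2 value per array of the 54 members above the median probe set level (left) and the 13 at or below it (middle), and the interquartile range of all probe sets (right), control in grey and carnitine in orange. The axes do not start at 0. Control 5 is lowest in the left and right panels, and in the middle panel it lies near the top.

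Among the small-subunit proteins that touch the mRNA, Rps26 at the channel where mRNA leaves the ribosome had the smallest p. Rps26, mutated in some patients with Diamond-Blackfan anaemia, a human disorder of ribosomal protein genes, had log2 values of 10.42, 10.36, 10.38, 10.68 and 10.04 in control and 10.51, 10.53, 10.75, 10.88 and 10.53 in carnitine. The groups overlapped, since control replicate 4 lay above 3 of the carnitine mice. The difference was 0.26 (SE 0.11, limma adjusted p = 0.712), and 0.18 without control replicate 5. A second probe set of Rps26, at a dim mean of 3.77, differed by -0.02. Rpsa, a protein of the same region that also occurs as a laminin-binding protein, differed by 0.19 (SE 0.12), Rps28 by 0.13 (SE 0.18) and Rps3, at the mRNA entry, by 0.07 (SE 0.084). Rps28 stood at -0.05 without control replicate 5, and its second, dimmer probe set differed by -0.19. At the decoding site, Rps23 differed by -0.22 (SE 0.15) and Rps15, whose tail reaches the site, by 0.28 (SE 0.20). Rps15 had a dim signal and a wide spread, from 4.83 to 5.74 in control and from 5.03 to 6.10 in carnitine. Of these 6 measured genes of the mRNA channel and decoding site, 5 had a positive difference and 0 passed the adjusted threshold.

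Rps13, a 40S protein, showed the largest difference of the members, 0.49 (SE 0.29, limma adjusted p = 0.721). Its values were 8.17, 7.94, 7.23, 8.07 and 6.22 in control and 8.19, 7.83, 8.0, 8.26 and 7.80 in carnitine. Control replicates 3 and 5 were low and the other 3 controls lay within the carnitine range. Without control replicate 5 the difference was 0.16. Rps6, the substrate of the S6 kinases and so a readout of mTORC1 signalling as a protein, was bright. Control mice averaged 11.62 ± 0.10 and carnitine mice 11.65 ± 0.05 (SD, 5 mice each). Its difference of 0.03 had a 95% interval from -0.12 to 0.19.

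Of 9 genes mutated in Diamond-Blackfan anaemia that were listed, 7 were measured, and the list does not hold every gene of that disorder. Of the 7, 4 had a positive and 3 a negative difference, with 0 past the adjusted threshold. Rps24 differed by 0.30 (SE 0.14), with 10.06, 9.58, 9.24, 9.71 and 9.31 in control and 9.95, 9.65, 9.76, 9.99 and 10.04 in carnitine. Control replicate 1 was the highest of all 10, so the groups overlapped. Rps19, the gene most often mutated in that disorder, differed by -0.05 (SE 0.11), Rps10 by 0.12 (SE 0.092) and Rps7 by -0.21 (SE 0.12). Rpl5 and Rpl11 enter the 60S with the 5S ribosomal RNA, and outside the ribosome the same particle binds Mdm2 and so stabilises p53. Rpl5 differed by 0.09 (SE 0.14) and Rpl11 by -0.21 (SE 0.10). Rpl11 had a dim signal, with 5.59, 5.70, 5.52, 5.62 and 5.94 in control and 5.47, 5.55, 5.59, 5.47 and 5.24 in carnitine. Control replicate 5 was its highest value, and without that array the difference was -0.14. Among the other small-subunit genes with a negative difference were Rps14 at -0.26 (SE 0.14) and Rps18 at -0.10 (SE 0.086), and the 60S gene Rpl30 stood at -0.11 (SE 0.090).

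On the large subunit, the stalk proteins that recruit elongation factors differed by less than their error. Rplp0, the base of the stalk, had a control mean of 8.71 ± 0.23 and a carnitine mean of 8.72 ± 0.19 (SD, 5 mice each). The same means were 10.85 ± 0.14 and 10.81 ± 0.12 for Rplp1, and 5.04 ± 0.26 and 5.03 ± 0.22 for Rplp2, which had a dim signal. The 95% interval of the difference ran from -0.26 to 0.26 for Rplp0, from -0.23 to 0.15 for Rplp1 and from -0.30 to 0.28 for Rplp2, and the signs of Rplp0 and Rplp2 turned after cyclic loess. Around the exit of the peptide tunnel 5 of 6 measured genes had a positive difference and 0 had an unadjusted p below 0.05. Rpl23a, where chaperones and the signal recognition particle dock, stood at 0.18 (SE 0.14), Rpl19 at 0.09 (SE 0.095), Rpl17 at 0.09 (SE 0.15), Rpl35 at 0.04 (SE 0.10), Rpl39 at 0.02 (SE 0.097) and Rpl26 at -0.03 (SE 0.11). Without control replicate 5 Rpl23a stood at 0.05 and Rpl19 at 0.03. The signs of Rpl19, Rpl35 and Rpl26 turned after cyclic loess, and those of Rpl17, Rpl26, Rpl35 and Rpl39 when 1 array was left out.

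The larger upward differences of the 60S genes rested in part on control replicate 5. Rpl7 had 9.78, 9.57, 9.62, 9.34 and 8.31 in control and 9.70, 9.70, 9.77, 9.81 and 9.64 in carnitine, and Rpl9 had 8.26, 8.22, 8.40, 8.32 and 7.25 against 8.58, 8.48, 8.22, 8.38 and 8.40. In both genes control replicate 5 lay far below all others, and without it the groups still overlapped. For Rpl7, 3 of the other 4 controls lay below every carnitine mouse, and for Rpl9 the other 4 controls lay within the carnitine range. The difference of Rpl7 was 0.40 (SE 0.21) with that array and 0.15 without it, and that of Rpl9 was 0.32 (SE 0.18) and 0.11. Each gene has a second, dimmer probe set with a negative difference, -0.05 for Rpl7 and -0.18 for Rpl9, and the mean of the probe sets gave 0.17 and 0.07. Rpl6l, annotated as a pseudogene of Rpl6, had 9.72, 9.61, 9.54, 9.65 and 9.13 in control and 9.79, 9.75, 9.78, 9.77 and 9.69 in carnitine, with 4 of 5 carnitine mice above every control. Its difference was 0.23 (SE 0.10, limma adjusted p = 0.712) and 0.13 without control replicate 5. Rpl6 itself stood at -0.01 (SE 0.11), and as near-identical sequences can share signal, the value of Rpl6l is uncertain. Rpl4, whose loop lines the peptide tunnel, and Rpl21 were the brightest members, at 12.30 ± 0.06 and 12.44 ± 0.06 in control (SD, n = 5), and differed by 0.04 (SE 0.068) and 0.07 (SE 0.066). The signs of Rpl4 and Rpl21 turned after cyclic loess.

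The paralogue pairs held the 2 members whose groups did not overlap. Rpl7l1 encodes a relative of Rpl7, and in yeast a related protein, Rlp7, acts in assembly of the 60S subunit. Its values were 5.63, 5.90, 5.90, 5.66 and 5.29 in control and 5.95, 6.09, 6.03, 6.04 and 5.91 in carnitine. All 5 carnitine mice lay above every control, but the nearest values were 0.01 apart, at a level close to the median probe set. The difference was 0.33 (SE 0.11, limma adjusted p = 0.712), or 1.26-fold, and 0.23 without control replicate 5. Rps4l, annotated as a transcribed pseudogene related to Rps4x, had 5.69, 5.42, 5.44, 5.65 and 5.57 in control and 5.33, 5.26, 5.33, 5.22 and 5.21 in carnitine. All 5 carnitine mice lay below every control. The difference of -0.28 (SE 0.087, limma adjusted p = 0.712) was the same without control replicate 5, at -0.28, and the signal was dim. At such levels genes in general leaned down, with a median difference of -0.06 for all genes from 5 to 6, and of -0.01 without control replicate 5.

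Rpl3l, the striated-muscle form of Rpl3, was bright, with 10.69, 10.42, 10.59, 10.41 and 9.99 in control and 10.62, 10.60, 10.62, 10.67 and 10.41 in carnitine. Its carnitine values lay inside the control range, and control replicate 5 was the lowest. The difference was 0.16 (SE 0.12) and 0.06 without that array. Rpl3, the ubiquitous form, spread over 7.40 to 8.12 in control and 7.48 to 8.11 in carnitine and differed by 0.05 (SE 0.14). Rps27l differed by 0.17 (SE 0.086), with 7.53 to 7.87 in control and 7.82 to 7.92 in carnitine, and its partner Rps27 by -0.04 (SE 0.14). Rpl22l1, whose mRNA the Rpl22 protein holds down in mice, differed by -0.16 (SE 0.11) at a dim level of 4.65 in control, and Rpl22 by -0.06 (SE 0.089). Rpl39l differed by 0.08 (SE 0.092).

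The balance within each pair was tested on the difference of the 2 log2 values in the same mouse. This removes what the array adds to both genes alike, but not an effect that differs with signal level. On control replicate 5 the mean of the bright members was lowest and that of the dim ones was not. There Rps4l minus Rps4x stood at -3.48, and at -4.02 to -3.62 in the other controls. Rpl7l1 minus Rpl7 stood at -3.02, and at -4.15 to -3.67 in the others. Of 8 listed pairs 6 had both genes measured. By an exact two-sided permutation test over the 252 assignments of 5 of 10 arrays, which cannot give a p below 0.00794, 0 of the 6 pairs had a p below 0.05. Rps4l against Rps4x shifted by -0.30 (SE 0.12, exact permutation p = 0.0556, 0.333 after Benjamini-Hochberg adjustment over the 6 pairs), with 2 of 5 carnitine mice below every control. It was -0.24 without control replicate 5 and -0.13 after cyclic loess. The shift of Rpl3l against Rpl3 was 0.12 (SE 0.16, exact permutation p = 0.524), and in each mouse the difference lay between 2.29 and 3.00 in control and between 2.56 and 3.14 in carnitine. The shifts were 0.21 for Rps27l against Rps27 (SE 0.20, exact permutation p = 0.317), -0.11 for Rpl22l1 against Rpl22 (SE 0.15), 0.05 for Rpl39l against Rpl39 (SE 0.13) and -0.07 for Rpl7l1 against Rpl7 (SE 0.18). The shift of Rps27l against Rps27 was 0.09 without control replicate 5 (exact permutation p = 0.619) and 0.08 after cyclic loess. That of Rpl7l1 against Rpl7 turned to 0.09 without control replicate 5, where Rpl7 was low.

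**Figure D4:**
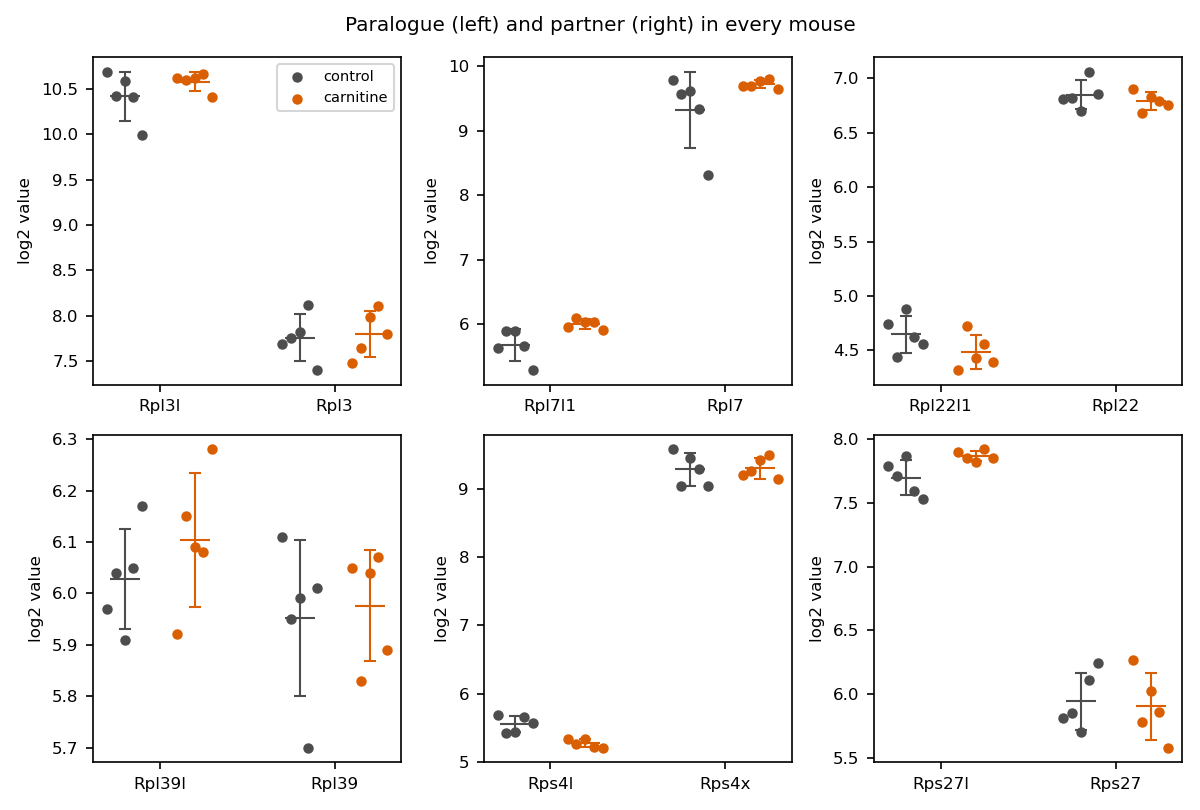
Log2 values of the 6 paralogues (left in each panel) and their partners (right) in each control (grey) and carnitine (orange) mouse, with bars for the group mean and SD (n = 5). Heights of different genes in a panel are not comparable, since they come from different probes. Rpl7l1 and Rps4l are the genes whose orange and grey points do not overlap.

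The members varied together among mice of the same diet only in part. After subtraction of the group means, the median correlation over all pairs of the 67 genes across the 10 arrays was 0.20, with 0.31 among the 54 bright genes and 0.04 among the 13 dim ones. Without control replicate 5 these were 0.19, 0.21 and 0.08. All pairs share the same arrays and their normalization. Pairs of other genes at like levels were not set beside them, so these values are no trait of the family in particular. The genes nearest to the mean of the other members were Rpl23a (r = 0.98), Rpl19 (0.96) and Rps28 (0.95), which stayed at 0.94, 0.92 and 0.89 without control replicate 5. The farthest were Rpl39l (-0.60), Rpl26 (-0.59) and Rpl11 (-0.48). For Rpl26 and Rpl11 these depended on that array, and were 0.24 and 0.14 without it, where Rpl4 (-0.73), Rpl21 (-0.54) and Rpl6 (-0.49) were the farthest. The genes outside the family most correlated with the mean of all 67 members over 10 arrays were Anapc13 (r = 0.98), Gpihbp1 (0.97), the small nucleolar RNA gene Snord53 (0.97), Nfu1 (0.97) and the predicted gene Gm5614 (0.96). They stood at 0.97, 0.94, 0.97, 0.94 and 0.94 without control replicate 5. As the largest of all genes searched, these values are raised by the choice itself.

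Genes that work with the ribosome also had mostly positive differences, with 0 past the adjusted threshold. Fau, a 40S protein made as a fusion with a ubiquitin-like protein, differed by 0.18 (SE 0.12), and by 0.07 without control replicate 5, where it was lowest. It was the 1 measured gene among 4 symbols listed for ribosomal proteins named otherwise. Of 35 measured translation factors 32 had a positive difference, with a median of 0.13, where 62.8% of all genes above the median level were positive. The means of this list lay from 9 to 10, where all genes had a median difference of 0.10. The share of positive genes at that level was not counted. Against 3.14% of all genes on the higher side, 3 had an unadjusted p below 0.05, all higher. These were Eif3m at 0.27 (SE 0.088) and Eif3h at 0.22 (SE 0.097), subunits of the initiation factor that binds the 40S, and Eif4h at 0.22 (SE 0.091), a cofactor of the helicase that unwinds mRNA leaders. Of 46 genes of ribosome biogenesis and RNA polymerase I, 40 had a positive difference, with a median of 0.13, against the same 62.8%. The means of that list lay from 7 to 8, where all genes had a median difference of 0.07, and the share of positive genes there was not counted. Where the share of all genes was 3.14%, 3 had an unadjusted p below 0.05, all higher. They were Rrn3, the initiation factor of polymerase I, at 0.23 (SE 0.086), Nop2, a methyltransferase of 28S ribosomal RNA, at 0.20 (SE 0.090), and Bysl, an assembly factor of the 40S, at 0.19 (SE 0.086). In both lists 0 genes passed the adjusted threshold in limma, and the lists had their lowest mean of the 10 arrays in control replicate 5. Signs in the lists were not counted without that array. The translation list stood at 9.39 there and at 9.52 to 9.73 in the other controls, against 9.69 to 9.74 in carnitine. The biogenesis list stood at 7.57 there and at 7.75 to 7.85 in the other controls, against 7.80 to 7.92 in carnitine.

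**Figure D5:**
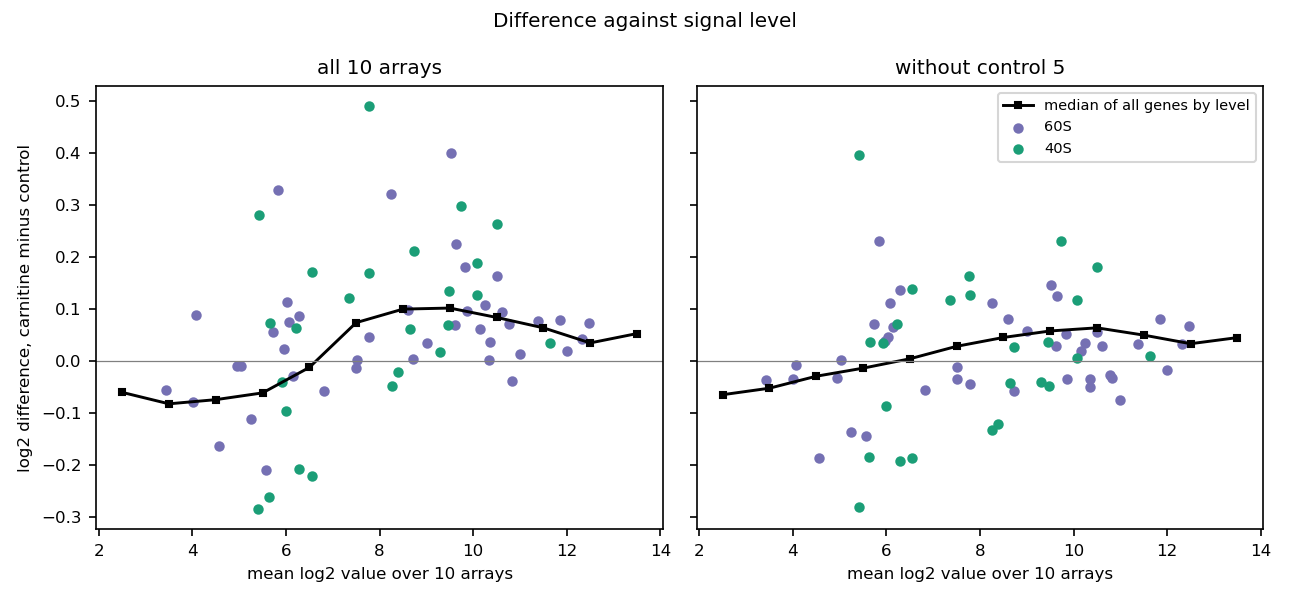
Log2 difference, carnitine minus control, of the 67 members against their mean log2 value (purple 60S, green 40S), with the median difference of all genes in steps of 1 log2 unit (black line), for all 10 arrays (left) and without control replicate 5 (right). The black line goes from below 0 at dim levels to above 0 at bright ones, and it is flatter without control 5.

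Markers of both fast and slow muscle fibres were bright. All 8 fast-fibre markers were measured, with a mean from 13.12 to 13.24 in control and 13.20 to 13.26 in carnitine. The 7 slow-fibre markers averaged 9.12 to 10.12 in control and 6.74 to 9.92 in carnitine, and all 7 had a negative difference. Of these, 5 had an unadjusted p below 0.05, against 3.83% of all genes on the lower side, and 0 passed the adjusted threshold. The fibroblast markers averaged 7.74 to 8.63 and 8.16 to 8.83, the adipocyte markers 5.56 to 6.40 and 5.64 to 6.10, the smooth muscle and pericyte markers 8.65 to 9.04 and 8.81 to 9.00, and the satellite cell markers 6.85 to 7.21 and 6.91 to 7.11. The T cell markers averaged 5.23 to 5.87 and 5.05 to 5.395, and 0 of 4 had a positive difference. The macrophage markers averaged 6.10 to 6.76 and 6.185 to 6.55, with 2 of 6 positive. The endothelial markers averaged 8.05 to 8.93 and 8.40 to 8.93, with 3 of 5 positive. Of all genes 47.7% were positive. The part of fibre type or of other cells in the values of the ribosomal protein genes was not tested.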

How the data were processed

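Gastrocnemius total RNA of 10 mice was measured on Affymetrix Mouse Gene 2.0 ST arrays. The authors deposited log2 values for 34390 probe sets. The submitters' processing notes name RMA and Affymetrix Expression Console, without versions. RMA draws dim values to a floor and equalises the arrays, though the deposited ranges still differ. Probe sets were named from the platform annotation, which gives 1 symbol for 23521, several for 1814 and none for 9055.

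Groups came from the sample titles. For each gene the brightest probe set was tested with limma 3.58.1 in R 4.3.3 (lmFit, eBayes with a mean-variance trend, two-sided, Benjamini-Hochberg over 22180 genes, threshold 0.05), with no filter on dim genes. The fit was tested on simulated data. Paralogue pairs were tested by exact permutation. The members and lists were chosen with earlier results of these data known. The naming rule took the paralogue pairs, the 8 smallest p per direction, members whose groups do not overlap, outlying arrays, fixed role groups, the 5 nearest other genes, up to 4 genes of each related list, and the 3 most and least typical members. Other members named for their level or outlying arrays were chosen after their values were seen. Promoter sequences are RefSeq's for GRCm38.p6. Alternatives were other scalings, variance models, probe set summaries, a dim filter, the replicate block and the omission of each array. The number of arrays limits the precision.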

Additional observations from a re-analysis of the deposited data

Results flagged for a closer look

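In 8 of the 134 groups of 5 values (67 genes on 2 diets), the highest or lowest mouse lay apart from the others by more than Dixon's critical share of the range, 0.71. By chance about 1 group in 20 does so. In 5 of the 8 the outlying array was control replicate 5, the one with the narrowest range, and it was low in each. Rpl9 stood at 7.25 there, against 8.22 to 8.40 in the other controls. Rpl15 stood at 11.16 against 11.35 to 11.40, and Rpl14 at 9.90 against 10.21 to 10.30. Rpl8 stood at 9.30 against 9.83 to 10.03, and Rpl38 at 10.34 against 10.75 to 10.91. The differences of Rpl15 and Rpl14 went from 0.08 and 0.11 to 0.03 and 0.04 without that array, and those of Rpl8 and Rpl38 turned from 0.10 and 0.07 to -0.03 and -0.03. In control replicate 2, Rps18 stood at 5.84 against 6.07 to 6.13. Carnitine replicate 5 was low in Rps3, at 9.35 against 9.51 to 9.55, and in Rpl3l, at 10.41 against 10.60 to 10.67.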

How the results depend on the processing

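Across all alternatives and omissions of an array, 0 members passed the adjusted threshold in limma and 0 paralogue pairs passed in the exact permutation test, where run. All genes past the threshold numbered 0 to 1 when 1 array was left out, with 1 without control replicate 2, and 0 in every other setting. Members with an unadjusted p below 0.05 were 4, and 7 with the replicate block, 2 with the dim filter, 2 with array weights and 2 after cyclic loess. They ranged from 2 to 10 when 1 array was left out, with 10 without control replicate 1 and 2 without control replicate 5 or carnitine replicate 4. Over all genes the share was 6.97% with all arrays, and 2.56% higher and 2.99% lower without control replicate 5. It was not counted in the other settings, so these counts are no result about the members in particular. The labels do not say whether replicate numbers pair the mice. Deviations of same-numbered arrays correlated from -0.13 to 0.24, with no differently numbered arrays set beside them, which cannot decide it. The replicate block changed no other call. Members with a positive difference were 48, and 31 after cyclic loess, 73 of 108 with all probe sets as members, and 38 to 52 with 1 array left out. Of all genes 47.7% were positive with all arrays and 51.1% without control replicate 5, and the other settings were not counted. The members' median difference of 0.06 ranged from 0.028 to 0.081 with 1 array left out. A suffix of 1 letter, which leaves 64 members, gave 3 with an unadjusted p below 0.05.

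Signs of small, uncalled differences turned in 34 of 494 values of single genes and pairs under other settings, and the cause was not tested. After cyclic loess they were Rpl15 -0.015, Rpl19 -0.0056, Rpl21 -0.0066, Rpl26 0.0099, Rpl3 -0.029, Rpl32l 0.0069, Rpl35 -0.065, Rpl38 -0.026, Rpl4 -0.041, Rpl8 -0.0088, Rplp0 -0.097, Rplp2 0.067, Rps27 0.012, Rps3 -0.036, Rps4x -0.088, Rps6 -0.056 and the pair Rpl7l1 minus Rpl7 0.090. With array weights they were Rpl26 0.043, Rpl35 -0.022, Rplp0 -0.027, Rplp2 0.028, Rps27 0.0085 and Rps4x -0.014. With the mean of probe sets they were Rpl4 -0.025, Rplp0 -0.083, Rplp1 0.063, Rps28 -0.026 and the pair Rpl7l1 minus Rpl7 0.15. After median centring, which adds 0.05 to every gene's difference and so turns small negative ones, they were Rpl26 0.022, Rpl6 0.036, Rplp1 0.012, Rplp2 0.040, Rps19 0.0020 and Rps27 0.010. With 1 array left out, 18 results turned in at least 1 omission. Their ranges were -0.0070 to 0.21 for Rpl17, -0.077 to 0.066 for Rpl26, -0.043 to 0.14 for Rpl3, -0.049 to 0.095 for Rpl35, -0.026 to 0.12 for Rpl38, -0.039 to 0.064 for Rpl39, -0.0075 to 0.20 for Rpl5, -0.064 to 0.073 for Rpl6, -0.034 to 0.16 for Rpl8, -0.067 to 0.093 for Rplp0, -0.090 to 0.012 for Rplp1, -0.11 to 0.072 for Rplp2, -0.13 to 0.012 for Rps19, -0.13 to 0.040 for Rps27, -0.047 to 0.23 for Rps28 and -0.043 to 0.092 for Rps4x. For the pairs they were -0.013 to 0.12 for Rpl39l minus Rpl39 and -0.20 to 0.085 for Rpl7l1 minus Rpl7. Rps4l stayed between -0.32 and -0.25 and Rpl7l1 between 0.23 and 0.38 in these omissions.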
